A study of Mus musculus with 6 samples.

Results

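Numbered zinc finger protein genes (Zfp followed by a number) were examined by the acetylation of lysine 27 on histone H3 (H3K27ac) at their promoters in mouse embryonic stem cells (ESCs), before and after depletion of the transcription factor OCT4. The members are the protein-coding genes of GENCODE vM21 (GRCm38) named in this way, without Zfp42, a pluripotency marker of another kind. There are 364 such genes. H3K27ac peaks with a transcript start of one of these genes within 1 kb were taken as their promoter peaks, which gave 369 of the 31131 peaks of the study. A gene was called clustered if the start of another gene of the list lay within 100 kb (202 genes in 54 clusters) and single if not (162 genes). Beyond the list of peaks, the rule uses only gene names and positions. That list is not independent of the libraries, since the authors called the peaks on the pooled uninduced reads.

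Most of these proteins bind DNA through arrays of C2H2 zinc fingers, and many carry a KRAB domain, which recruits TRIM28 (KAP1) and the histone methyltransferase SETDB1 to silence the sequence that the fingers recognise. They arose largely by tandem duplication, so that neighbouring genes of a cluster are related in sequence, and their usual targets are retroelements and imprinted loci. Other numbered Zfp genes encode activators, regulators of the stem cell state or RNA-binding proteins that share only the type of finger. H3K27ac marks active promoters and enhancers.

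The 6 libraries were 3 independent IPs from uninduced cells and 3 from cells given 500 μM IAA (auxin) for 1.5 h. All came from ZHBT-O4AID ESCs of strain 129SV, which have no endogenous Oct4 (Oct4-/-), a TetOFF Oct4 transgene, and Oct4AID and Tir1 each driven by the CAG promoter, so that OCT4 came from a degron-tagged transgene and was destroyed upon IAA through TIR1. Uninduced and IAA cells alike were held in N2B27 with PD03, Chiron and LIF, with doxycycline to keep the untagged Oct4 transgene off. Both groups are of this one line, so p-values measure the spread between these IPs.

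Values are RPKM (reads in a peak scaled by its length and by the reads of the whole library). Library sizes lay between 31634480 and 39547452 reads, of which 6.63% to 7.12% were in peaks before IAA and 4.05% to 5.15% after it. RPKM is relative to all reads of a library, so a general loss of acetylation and a higher share of background reads cannot be told apart. The median peak over all 26457 peaks tested fell by 0.55 on the log2 scale. All 7 markers of naive ESCs looked at, including Nanog, Klf4 and Esrrb, had a promoter peak of at least 0.5 RPKM, and none of 4 trophoblast or 4 fibroblast markers had one. Gata6 (1.48 RPKM), a marker of primitive endoderm, and Pax6 and Sox1 (1.62 and 1.74 RPKM), neural markers, had one as well. The files hold no measure of OCT4 protein.

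A short element is shown first because, of the motifs searched, its share differed most between clustered and single promoters, although most clustered promoters lack it. It reads ACTACANNT, or ANNTGTAGT on the other strand, and is part of the sequence bound by ZFP143, an activator that is itself one of the genes listed. The motif was picked after the sequences had been seen. In the RefSeq promoter table (GRCm38.p6, 250 bases before to 50 bases after each start), 299 of the 364 genes were matched, with 361 promoters. A match on either strand was found in 48 of 192 clustered promoters (25%), in 12 of 169 single ones (7.10%), in 4.47% of 19789 other coding promoters and in 4.16% of all 32851 promoters of the table. Of the 60 promoters with a match, 51 (85.0%) had TGGG just before ANNTGTAGT, against 42.9% of the other coding promoters with a match. In 45 (75%) the match ended within 100 bases before the start, against 46.5%. The genes with a match lay mostly on chromosomes 7 (25 genes) and 13 (17 genes), in some clusters and not in others, with 0 of 7 and 0 of 8 promoters in the largest clusters of chromosome 17 (Zfp871 to Zfp563 and Zfp677 to Zfp229). Stretches of 50 bases from the 3 clusters with most peaks, and from the single gene Zfp219, are printed 5′ to 3′ on the transcribed strand with the match in capitals:
Zfp84 (chr7:29768506-29768555, plus strand): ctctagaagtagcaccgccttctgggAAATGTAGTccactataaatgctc
Zfp74 (chr7:29954090-29954139, minus strand): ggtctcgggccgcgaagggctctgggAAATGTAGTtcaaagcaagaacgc
Zfp260 (chr7:30095024-30095073, plus strand): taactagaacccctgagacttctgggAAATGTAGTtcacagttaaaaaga
Zfp180 (chr7:24081851-24081900, plus strand): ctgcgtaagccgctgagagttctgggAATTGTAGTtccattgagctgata
Zfp108 (chr7:24254703-24254752, plus strand): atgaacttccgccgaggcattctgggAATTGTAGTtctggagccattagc
Zfp93 (chr7:24270323-24270372, plus strand): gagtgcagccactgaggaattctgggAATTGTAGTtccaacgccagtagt
Zfp708 (chr13:67081571-67081620, minus strand): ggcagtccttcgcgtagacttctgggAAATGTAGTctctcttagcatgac
Zfp759 (chr13:67128153-67128202, plus strand): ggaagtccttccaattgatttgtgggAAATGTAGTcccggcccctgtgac
Zfp748 (chr13:67553152-67553201, minus strand): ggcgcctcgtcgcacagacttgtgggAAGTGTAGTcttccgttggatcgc
Zfp219 (chr14:52019694-52019743, minus strand): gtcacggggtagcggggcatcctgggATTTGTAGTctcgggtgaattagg

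A match is a description of the letters and not a site of binding. Of the other motifs searched on both strands, the ETS core CCGGAAG was found in 20.3% of clustered, 23.7% of single and 11.7% of other coding promoters, and the YY1-like core GCCATNTT in 12%, 11.2% and 6.38%. The TATA box TATAAA was found in 6.77%, 7.10% and 12.2%. The GC box GGGCGG was in 37.5% of clustered, 50.9% of single and 47.8% of other coding promoters, and CCAAT in 51%, 43.2% and 37.6%. The octamer ATGCAAAT, to which OCT4 and other POU proteins bind, was in 2.08%, 2.37% and 1.54%.

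**Figure D1:**
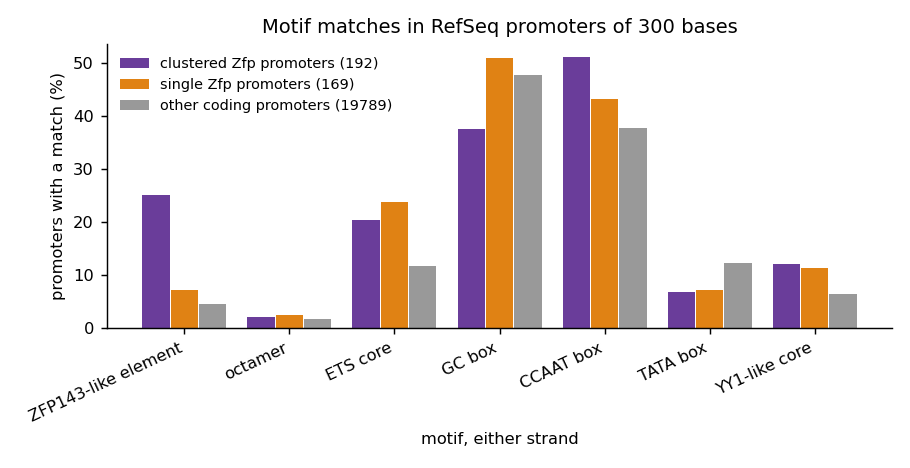
Share of RefSeq promoters of 300 bases with a match to each motif on either strand, as bars for 192 clustered Zfp, 169 single Zfp and 19789 other coding promoters. The ZFP143-like element was in 25% of clustered, 7.10% of single and 4.47% of other coding promoters.

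Most Zfp promoters carried H3K27ac in uninduced cells. Of the 364 genes, 306 (84.1%) had a promoter peak, against 46.8% of 21574 other coding genes, and 291 had one that reached 0.5 RPKM in either condition. Clustered genes had one in 87.1% of cases (176 of 202) and single genes in 80.2% (130 of 162). A single peak was found at 247 genes, 2 peaks at 50 and 3 peaks at 9. A transcript start lay inside 294 of the 369 peaks, while 28 lay upstream of the nearest start and 47 downstream. Of the peaks, 5 served 2 Zfp genes each and 40 also had a start of another coding gene within 1 kb, and in these the acetylation cannot be assigned to one gene.

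The 58 genes without a peak included Zfp423, Zfp503 and Zfp521, regulators of neural, limb and fat development, whose nearest peaks lay 159186, 140673 and 130468 bp away. Of these 58 genes, 46 had no peak within 10 kb and 12 had one between 1 and 10 kb. Repeated sequence did not mark them as a group, since 6 of the 58 (10.3%) and 38 of the 306 genes with a peak (12.4%) had over 50% of the 32-base words around the start (500 bases on each side) found more than once on the chromosomes.

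Levels at clustered genes lay below those at single genes in every library. Of the 369 peaks, 352 (191 clustered and 161 single) reached 0.5 RPKM in the authors' mean of either condition and were tested. The median peak in uninduced cells was at 2.23 RPKM for clustered genes, 2.94 for single genes and 2.90 for the 11471 other coding promoter peaks. On the log2(RPKM + 0.1) scale, the median of clustered peaks lay 0.42, 0.41 and 0.35 below that of single peaks in the 3 uninduced libraries and 0.33, 0.41 and 0.38 below it in the 3 IAA libraries. The mean difference was -0.39 ± 0.04 before and -0.37 ± 0.04 after IAA (SD, n = 3), a change of 0.02 that is smaller than either SD. Among peaks with no repeated word the difference was close to this, at -0.35 ± 0.01 and -0.34 ± 0.06 (104 clustered and 129 single peaks).

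After IAA, H3K27ac fell at most Zfp promoters tested. All 352 estimated log2 changes were negative, and 240 (68.2%) passed the limma test at an adjusted p under 0.05, while 0 were called higher, with 0 higher at an unadjusted p under 0.05 as well. Over all 26457 peaks 68.2% were called lower and 0.0605% higher, so the share at Zfp promoters equals the background. All peaks were called on uninduced reads only, so promoters acetylated mainly after IAA can be missing. This limits the number of rises that could be found, at Zfp and other peaks alike. The number called lower was 113 (32.1%) without uninduced replicate 1 and 152 (43.2%) without uninduced replicate 2, where 39.2% and 46.5% of all peaks were. The 3 IAA values lay below all 3 uninduced values at 268 Zfp peaks (76.1%), where this holds for 71.2% of all peaks. Of the 352 peaks, 4 fell by more than 2-fold, and 233 had a fold below 1.5.

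The library medians moved as those of other promoters did. For the Zfp peaks they were 1.48, 1.45 and 1.33 in uninduced and 1.06, 0.92 and 0.70 in IAA libraries, a change of -0.53 on the log2 scale, and the groups did not overlap. Other coding promoter peaks had medians of 1.63, 1.63 and 1.50 before and 1.24, 1.03 and 0.89 after IAA. Within each library Zfp peaks lay 0.16 ± 0.02 below other coding peaks before and 0.16 ± 0.04 below them after IAA (SD, n = 3), so the change of the difference was 0.00. Promoters of the Zbtb, Zscan and Zkscan genes, zinc finger families with other partner domains, gave a change of -0.52 (72 peaks, 75% called lower).

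**Figure D2:**
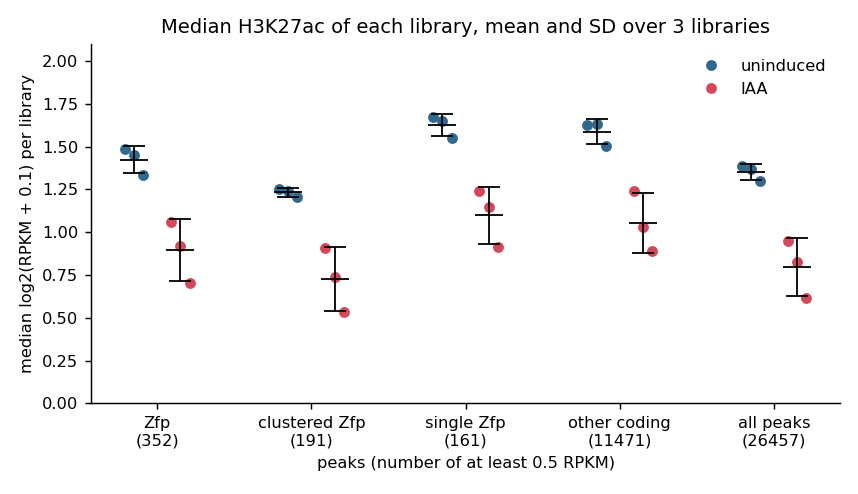
Median log2(RPKM + 0.1) of each library (points) with the mean and SD over 3 libraries (black bars) for uninduced (blue) and IAA (red) samples. In each of the 5 groups of peaks the 3 IAA libraries lie below the 3 uninduced ones, and clustered Zfp peaks lie below single ones.

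The fall was of close size at clustered and single genes. The medians of clustered peaks went from 1.25, 1.24 and 1.21 to 0.91, 0.74 and 0.53, a change of -0.51, and those of single peaks from 1.68, 1.65 and 1.55 to 1.24, 1.15 and 0.91, a change of -0.53. Of the clustered peaks 122 of 191 (63.9%) were called lower, and of the single peaks 118 of 161 (73.3%). The lower share of calls stood beside lower levels and a standard error of 0.20 against 0.18 (medians), and its source was not tested. After the median over all peaks of a library was subtracted from its values, 2 of the 352 Zfp peaks, both single, stayed called lower (Zfp106 and Zfp57) and 0 were higher, where 1.97% of all peaks were lower. The median Zfp change then stood at 0.025, and 201 of the 352 changes lay above 0, among them those of Zfp445, Zfp568, Zfp809 and Zfp207, one each of Zfp143, Zfp516 and Zfp36, and Zfp940 and Zfp94 of the clusters described below, so the changes given for them hold relative to all reads of a library and not relative to the median peak.

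**Figure D3:**
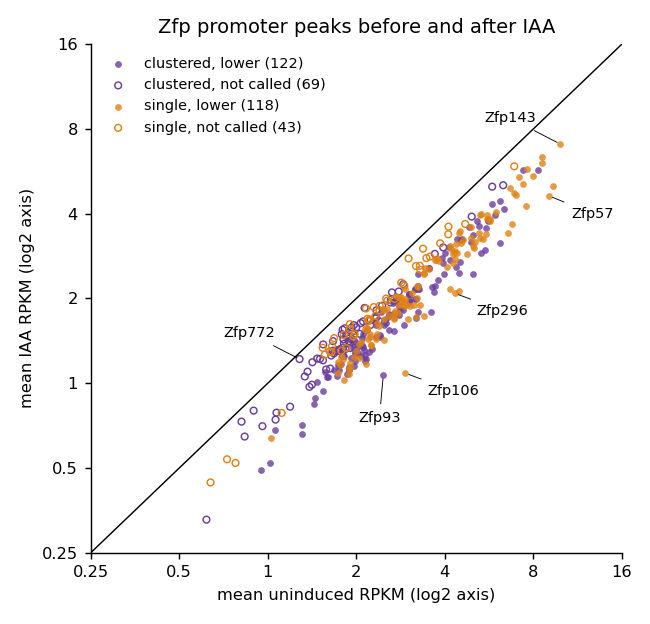
Mean RPKM of each Zfp promoter peak in uninduced (x axis) and IAA cells (y axis), both on log2 axes, with clustered genes in purple, single ones in orange, called peaks filled, other peaks open, and equality as a line. All 352 peaks lie below the line, 240 of them called lower, and clustered and single genes share one band.

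The distance limit of 100 kb is a choice, and 28 of the 162 single genes had another gene of the list within 200 kb. Just inside lay Zfp965 and Zfp972 (neighbours at 97549 and 97671 bp), whose peaks were below the threshold in both conditions, and just outside lay Zfp825 and Zfp72 (103156 bp), at 2.32 and 1.68 RPKM before and 1.44 and 1.45 RPKM after IAA. Zfp263 followed at 103175 bp.

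Among the genes that silence imprinted loci and retroelements, 6 of 8 promoter peaks were called lower, where 68.2% of all peaks were. Zfp57, which keeps methylation at imprinting control regions, had one of the highest levels of the list, and its peak (chr17:37002534-37003411) holds a transcript start. It measured 9.23, 9.62 and 8.30 RPKM in uninduced and 5.35, 4.23 and 4.28 in IAA libraries. No value overlapped between the groups, and the log2 change was -0.96 ± 0.15 (SE) with an adjusted p of 0.000156 (limma), which was 0.0342 after centring of the libraries.

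Zfp445, which acts at imprinted loci too, measured 2.85, 2.26 and 3.00 RPKM before and 1.89, 1.88 and 2.17 after IAA. It fell by 0.42 on the log2 scale (limma adjusted p = 0.0408). Zfp568, a repressor of a placental transcript of Igf2, had an OCT4 site within 1 kb of its peak and went from 8.85, 8.32 and 7.75 to 6.55, 5.59 and 4.95 RPKM (log2 change -0.54, limma adjusted p = 0.00647). At Zfp708, which binds a class of retroelement, both peaks lay within 1 kb of an OCT4 site and fell by 0.82 and 0.73, at internal starts 15.5 and 16.7 kb from the most upstream GENCODE start. Zfp809, which recognises the primer binding site of murine leukaemia virus, had one peak at -0.49 (adjusted p = 0.0126, limma) and another at -0.33 (0.0748) that was not called. The Zfp932 peak, a silencer of endogenous retroviruses, measured 1.96 ± 0.193 RPKM before and 1.46 ± 0.141 after IAA (SD, n = 3) and was not called (limma adjusted p = 0.0736).

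Among regulators of the stem cell state and general transcription factors, 8 of 11 peaks were called lower (72.7%, near the 68.2% of all peaks). Zfp296, a reprogramming factor expressed in pluripotent cells, had the largest fall in this group, at a peak that also lies within 1 kb of a start of another coding gene, so that the acetylation cannot be assigned to Zfp296 alone. The peak (chr7:19577333-19577817) begins 46 bp downstream of the most upstream GENCODE start and ends 12 bp upstream of an internal one. It measured 4.23, 4.38 and 4.38 RPKM before and 2.0, 2.40 and 1.85 after IAA. The groups were well apart, with a log2 change of -1.03 ± 0.16 (SE, limma adjusted p = 0.000166). The peak has no OCT4 mark, but the promoter holds an octamer, in capitals in this stretch of 100 bases, that ends 103 bases before the RefSeq start and lies outside the peak:
Zfp296 (chr7:19577130-19577229, plus strand): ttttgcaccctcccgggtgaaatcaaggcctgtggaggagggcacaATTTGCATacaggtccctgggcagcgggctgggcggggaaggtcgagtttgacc

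The octamer was rare in Zfp peaks, as in all peaks. Over the whole length of a peak, 14 of 352 (3.98%) held it on either strand, against 3.01% of all peaks. Of the 41 within 1 kb of an OCT4 site 3 did (7.32%), those of Zfp120, Zfp345 and Zfp428, the last with 3 copies, and of the 311 others 11 (3.54%), with 6.44% and 2.28% over all peaks with and without the mark. These 3 genes were named after their values were seen. In the 300 bases around the peak centre, 0 of the 41 marked and 5 of the 311 other Zfp peaks (1.61%) held it, with 2.62% and 0.812% over all peaks.

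Zfp148, a GC-box binding factor, had 3 promoter peaks, and all 3 were lower. The largest measured 10.7, 9.30 and 8.02 RPKM before and 5.54, 5.18 and 4.33 after IAA, and the changes were -0.88, -0.92 and -0.65, the last at an internal start 19.2 kb from the most upstream one. Zfp143, the factor of the element shown above, had the highest promoter of the list. Its main peak went from 9.82, 10.1 and 9.63 to 7.58, 6.95 and 6.66 RPKM (log2 change -0.48, limma adjusted p = 0.00778), and the second fell by 0.59. Zfp281, a partner of pluripotency factors, fell by 0.58 (limma adjusted p = 0.0198), although one IAA value (2.61 RPKM) lay within the uninduced range of 2.56 to 3.08. Zfp217, an oncogene product that also acts in ESCs, had one called peak (-0.57) and one not called (-0.28), at internal starts 14.2 and 17.7 kb into the gene. Zfp335 (6.88 ± 0.237 RPKM before and 5.89 ± 0.862 after) and Zfp462 (1.90 ± 0.227 and 1.56 ± 0.381, SD, n = 3), a heterochromatin factor of ESCs, were not called.

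Of the lineage genes, 3 of 4 peaks were called lower (75%, near the 68.2% of all peaks), all 3 at Zfp516. The changes at Zfp516, which acts in brown fat, were -0.64, -0.54 and, 7.1 kb into the gene, -0.88. Zfp703, a regulator of epithelial growth, was not called (-0.34, limma adjusted p = 0.192). Among those for RNA-binding proteins, 5 of 8 peaks were called lower (62.5%, against 68.2% of all peaks). Zfp36 (tristetraprolin), which speeds the decay of AU-rich mRNAs, fell at both its peaks (-0.47 and -0.56), as did Zfp207 (-0.41), which acts at the mitotic spindle and in splicing. The call of the first Zfp36 peak was lost with its sign kept in 7 of 15 other settings, and that of Zfp207 in 5. Among them was limma without trend and robust (limma adjusted p = 0.0531 and 0.0550). In 2 further settings for each, centring and quantile normalization, the change lay above 0 and the call was lost as well. Zfp326 (-0.30) and the 2 peaks of Zfp638 (-0.24 and, 47.1 kb into the gene, -0.20) were not called.

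The largest fall of all was at Zfp106, which encodes an RNA-binding protein, and not at its main promoter. The peak (chr2:120512988-120514300) lies 49.5 kb into the gene, 123 bp upstream of an internal transcript start and within 1 kb of an OCT4 site. It measured 3.22, 2.70 and 2.89 RPKM before and 1.23, 1.01 and 1.01 after IAA. The log2 change was -1.36 ± 0.19 (SE, limma adjusted p = 6.24e-05). At the main promoter the values were 5.32, 4.90 and 5.43 before and 3.68, 3.07 and 3.52 after IAA, a change of -0.60.

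Next came Zfp93, Zfp219, Zfp296 and Zfp74. The Zfp93 peak (chr7:24270367-24270671) measured 2.50, 2.70 and 2.21 RPKM before and 1.45, 1.09 and 0.664 after IAA, a log2 change of -1.19 ± 0.24 (SE, limma adjusted p = 0.000966). Zfp219 (chr14:52019196-52019624) went from 4.90, 4.51 and 3.98 to 2.19, 2.65 and 1.55 RPKM (-1.06), and Zfp74 (chr7:29944537-29945073) from 3.40, 3.54 and 3.85 to 2.3, 1.34 and 1.72 RPKM (-1.0). The peaks of this ranking, with that of Zfp106, were picked among called peaks whose IAA values all lay below the uninduced values. That separation was thus set by the choice. Zfp93 and Zfp74 carry the OCT4 mark at these peaks, and that of Zfp74 lies 9.0 kb from the most upstream start, near an internal one. No Zfp peak met the rule for a rise.

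The smallest changes were at Zfp772, Zfp984 and Zfp367, and in these the groups overlapped. Zfp772 measured 1.06, 1.38 and 1.41 RPKM before and 1.44, 1.01 and 1.21 after IAA (log2 change -0.07 ± 0.22, SE). One of the 2 Zfp984 peaks measured 0.919, 0.985 and 0.537 before and 0.723, 0.756 and 0.712 after IAA (-0.10, 33.8 kb from the most upstream start), while the other fell by 0.86. The Zfp367 peak, 88 bp downstream of a start, measured 3.01, 3.15 and 2.86 before and 2.84, 2.92 and 2.56 after IAA (-0.12).

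Peaks of 1 gene were not always called alike. Among the 57 genes with more than 1 peak above the threshold, 32 had every peak called, 23 some and 2 none, where 68.2% of all peaks were called lower. No such count was made for other genes, so this mix is not a trait of Zfp genes. The range between the changes of a gene had a median of 0.20 and reached 0.76 at Zfp106 on the log2 scale. The change of a Zfp peak had a median SE of 0.19, and differences within a gene were not tested.

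An OCT4 site in published ChIP-seq data lay within 1 kb of 41 of the 352 Zfp peaks (11.6%), against 7.92% of other coding promoter peaks and 17.6% of all peaks. Of the 41 marked peaks 33 (80.5%) were called lower, with a median change of -0.65, and of the 311 unmarked ones 207 (66.6%), with a median of -0.49. The IAA values lay below all uninduced values at 75.6% of the marked and 76.2% of the unmarked peaks. Within the libraries the median of the marked peaks lay between 0.11 below and 0.04 above that of the unmarked before IAA, and 0.34, 0.24 and 0.22 below it after IAA. The mean difference moved by -0.22, from -0.05 ± 0.07 to -0.27 ± 0.07 (SD, n = 3). At other coding promoters the difference moved by -0.20 (909 marked peaks, 85.9% called lower). The marked Zfp peaks had a lower GC content than the unmarked (medians of 49.0% and 55.5%) and more repeated words (means of 21.1% and 8.06%), and the part of these in the difference was not tested.

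The cluster with most peaks lies on chromosome 7 between 29768552 and 30169750, where 15 genes over 401 kb had 18 peaks. All genes there had a peak, and 10 of the 14 with a RefSeq promoter held the ZFP143-like element. Levels ranged from 1.54 RPKM at Zfp420 to 8.31 at Zfp568. Of the peaks, 12 were called lower (66.7%, near the 68.2% of all peaks), with changes from -0.21 at Zfp940 to -1.0 at Zfp74. Zfp260 went from 4.88, 4.05 and 4.56 to 3.01, 2.56 and 2.53 RPKM (-0.71) without overlap, while Zfp940, with 1.28, 1.66 and 1.69 RPKM before and 1.65, 1.66 and 0.810 after IAA, overlapped.

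A second cluster on chromosome 13 (67061170 to 67553830, 14 genes, 15 peaks) held the element in 12 of 13 promoters and had low levels, from 1.19 to 3.24 RPKM among the 14 peaks tested. Of these 8 were called lower (57.1%, against 68.2% of all peaks). The largest fall was at Zfp748 (3.76, 3.05 and 2.91 RPKM before and 2.17, 1.80 and 1.41 after IAA, -0.83), which has the OCT4 mark. Another cluster, on chromosome 7 between 24081924 and 24316666, has 10 genes, of which Zfp114 had no peak. There 5 of 10 peaks were called lower (50%, against 68.2% of all peaks), and Zfp93 (-1.19) and Zfp94 (-0.26) stood at the ends of the range.

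**Figure D4:**
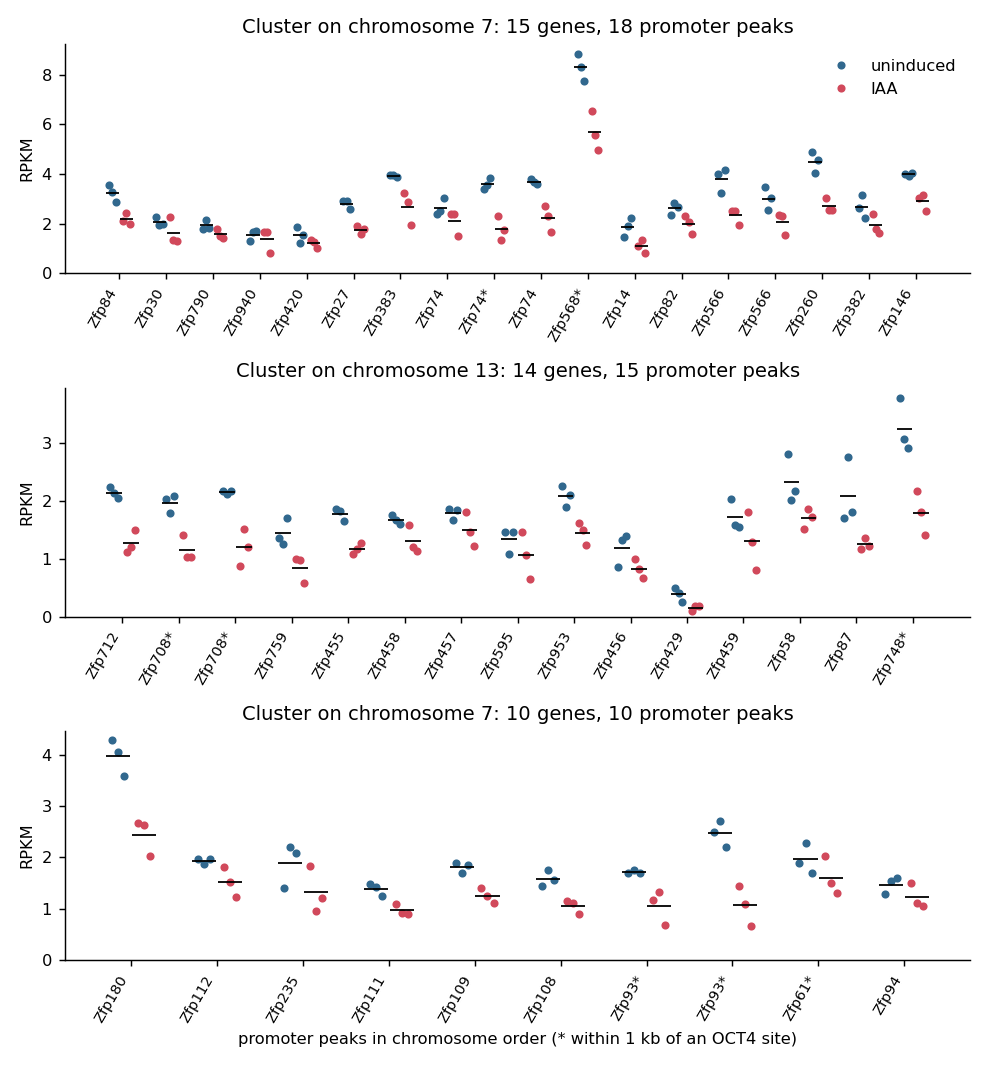
RPKM of each library (points, uninduced in blue and IAA in red) and their mean (black line) for the promoter peaks of the 3 clusters with most peaks, in chromosome order, with an asterisk at peaks within 1 kb of an OCT4 site. Zfp568 reaches 8.31 RPKM and Zfp748 falls from 3.24 to 1.79 RPKM, while Zfp940 and Zfp94 overlap between conditions.

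Over the 15 clusters with at least 5 peaks tested, the median change ran from -0.69 to -0.38 and the share called lower from 33.3% to 83.3%. Both ends were clusters of 5 or 6 peaks, on chromosomes 8 (Zfp709, Zfp882, Zfp617 and Zfp961) and 7 (Zfp768, Zfp747, Zfp764, Zfp688 and Zfp689) for the medians. Peaks of Zfp genes with the element in a RefSeq promoter had a median of 2.14 RPKM before IAA. Those of the other Zfp genes with a RefSeq promoter had one of 2.70. Their changes were -0.54 and -0.53 (64 and 232 peaks, change of library medians). The peaks themselves were not searched for the element, and peaks of genes without a RefSeq promoter were left out. The median of the former lay below that of the latter by 0.30 ± 0.07 before and 0.30 ± 0.05 after IAA (SD, n = 3). Of the 60 promoters with the element 48 were clustered, and clustered minus single peaks stood at -0.39 before IAA. The part of clustering in the difference by element was not tested.

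The lowest values stood beside the most repeated sequence. The share of 32-base words of a peak found more than once on the chromosomes averaged 9.58% at the Zfp peaks tested (12.4% clustered, 6.17% single) and 2.60% at other coding promoters. All 17 Zfp peaks under the threshold had over 50% of such words. Of these, 11 stood at 1 read in at least 1 library, and 8 stood at 1 read in all 6: Zfp433, Zfp781, Zfp968, Zfp965, Zfp967, Zfp973, Zfp600 and Zfp993, all with 100% of words repeated. The values do not go below 1 read, and whether 0 reads were raised to 1 or reads of repeated sequence were removed before counting was not tested, so 0 reads and 1 read cannot be told apart, a low value here need not mean little acetylation, and no fold was computed for these peaks. Zfp97, the ninth with 100%, had 2, 6 and 2 reads before and 1, 3 and 2 after IAA. No Zfp peak above the threshold was at 1 read, and the lowest held 5 reads.

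Related genes on distal chromosome 2 are shown as an example of such sequence. The 100 bases before the RefSeq start of Zfp967 are found unchanged at Zfp968, Zfp965 and Zfp973, and all 4 peaks stood at 1 read in every library. Zfp971, Zfp970 and Zfp931 differ from it at 1, 2 and 5 bases, in capitals below, and their peaks had reads:
Zfp967 (chr2:176520904-176521003, plus strand): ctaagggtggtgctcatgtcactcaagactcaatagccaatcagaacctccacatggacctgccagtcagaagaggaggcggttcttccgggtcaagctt
Zfp971 (chr2:178023170-178023269, plus strand): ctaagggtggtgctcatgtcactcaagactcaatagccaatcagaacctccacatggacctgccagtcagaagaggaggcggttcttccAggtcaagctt
Zfp970 (chr2:177464637-177464736, plus strand): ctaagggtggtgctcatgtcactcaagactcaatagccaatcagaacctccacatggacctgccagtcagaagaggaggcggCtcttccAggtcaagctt
Zfp931 (chr2:178078470-178078569, minus strand): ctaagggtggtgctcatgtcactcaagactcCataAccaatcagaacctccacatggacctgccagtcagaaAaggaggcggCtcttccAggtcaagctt

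The Zfp971 peak (73.9% of words repeated) held 86, 57 and 63 reads before and 37, 44 and 26 after IAA and fell by 0.81 on the log2 scale (limma adjusted p = 0.0106). Zfp970 (80.0%) held 38, 22 and 33 reads before and 18, 21 and 22 after IAA, a change of -0.43 that was not called. Zfp931 (86.0%) held 21, 9 and 19 reads before and 12, 5 and 7 after IAA. Its change of -0.77 ± 0.34 (SE) did not pass either (limma adjusted p = 0.0505). In 6 of 14 other settings it was called, among them pseudocounts of 0.5 and 1 (limma adjusted p = 0.0483 and 0.0480). Zfp966 and Zfp969, whose start regions had 100% of words repeated, had no peak.

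Among the 29 Zfp peaks tested with over 50% of words repeated the median level before IAA was 1.28 RPKM, against 2.70 RPKM for the other 323. Of the 29, 13 (44.8%) were called lower, and of the 323, 227 (70.3%), while the medians over the changes of single peaks were -0.49 and -0.53 and the changes of the library medians -0.41 and -0.53. The most repeated peaks above the threshold were those of Zfp980 (94.3%), Zfp989 (89.6%) and Zfp931. Zfp980 measured 0.903, 0.591 and 0.835 RPKM before and 0.648, 0.424 and 0.491 after IAA (-0.49, not called). Zfp989 measured 1.16, 0.845 and 1.08 before and 0.373, 0.881 and 0.661 after IAA (-0.66, limma adjusted p = 0.0437), with an overlap of the groups.

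**Figure D5:**
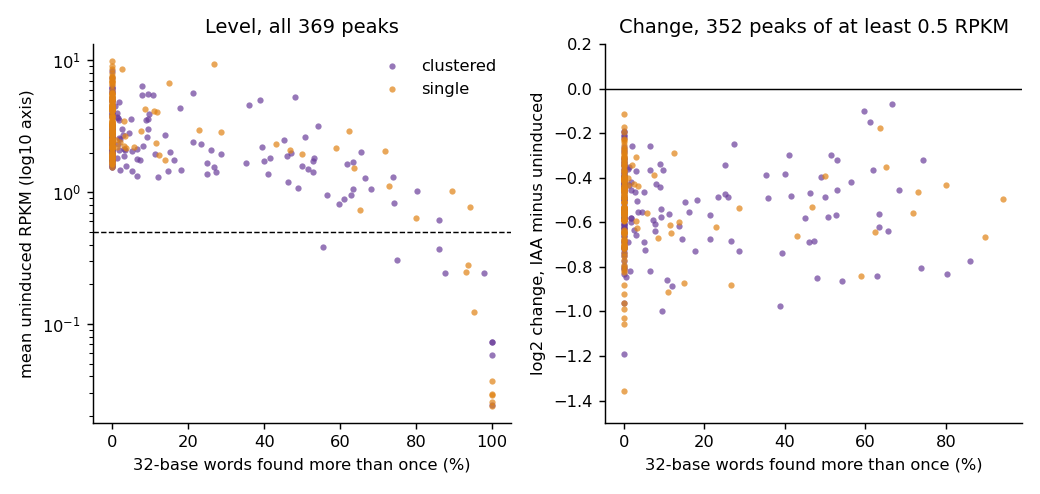
Clustered genes are in purple and single ones in orange. Left, mean uninduced RPKM (log10 axis) of all 369 Zfp promoter peaks against the share of their 32-base words found more than once, with the threshold of 0.5 RPKM as a dashed line. Right, log2 change of the 352 peaks above it, which were all negative at every share of repeated words, while levels on the left drop to 1 read at 100%.

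Of the genes whose products act with KRAB zinc finger proteins, 19 of 21 had a promoter peak, and 23 of their 29 peaks were called lower (79.3%, against 68.2% of all peaks) and 0 higher. After subtraction of the library medians 0 stayed called, and 16 of the 29 changes lay above 0, among them those of the 2 Trim28 peaks with the smaller falls (0.15 and 0.081). Trim28, the corepressor itself, had 3 peaks, of which the highest went from 6.68, 6.85 and 6.15 to 4.68, 3.17 and 3.64 RPKM (log2 change -0.78, limma adjusted p = 0.00133), and the others fell by 0.40 and 0.47. Setdb1 went from 0.799 ± 0.0857 to 0.455 ± 0.112 RPKM (SD, n = 3, -0.71). Dnmt1, the maintenance DNA methyltransferase, fell by 0.77 and Sumo2, a modifier of TRIM28, by 0.86 at its larger change. The 6 peaks not called were those of Kdm1a (-0.24), Chd4 (-0.31) and Hdac2 (-0.41), and one each of Atf7ip (-0.12), Smarcad1 (-0.28) and Morc3 (-0.43). The change of the library medians over the 29 peaks was -0.55.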

How the data were processed

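The authors aligned reads to GRCm38 with Bowtie2 2.3.4.3, discarded duplicate reads (SAMtools), pooled the uninduced reads for peak calling (MACS2) and deposited RPKM made with DiffBind, for each library and as the mean of each condition. Their table marks peaks within 1 kb of a published OCT4 site. With peak length as end minus start, 100% of values were whole multiples of 1 read (within 0.01). Reads in the median Zfp peak ranged from 45 to 96, which gives counting errors between 10.2% and 14.9%.

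Peaks of at least 0.5 RPKM in either mean entered limma 3.58.1 (R 4.3.3) as log2(RPKM + 0.1) (eBayes with trend and robust, two-sided, Benjamini-Hochberg over 26457 peaks). Medians over members have no p. The same-numbered IPs did not deviate together (correlations -0.01, -0.09 and -0.06). Words of 32 bases were taken every 16 bases (numba 0.67.0, Python 3.11.15). Named peaks are genes of known role, the 5 largest falls and up to 5 rises without overlap, the 3 highest, the 3 least changed, the 3 most repeated on each side of the threshold (ties included) and the 3 largest clusters. Members and lists were chosen with earlier results of these data known. Coordinates of peaks are printed as deposited.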

Additional observations from a re-analysis of the deposited data

How the results depend on the processing

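The number of Zfp promoter peaks called higher was 0 under all settings tried, among them pseudocounts of 0.5 and 1, a threshold of 1 RPKM or none, and starts within 500 bp. Every setting used the same peaks, called on uninduced reads, so none could find a promoter acetylated only after IAA. The number called lower went from 240 to 2 when libraries were centred on their median and to 3 with quantile normalization. The median changes were then 0.025 and 0.031 for all Zfp peaks, 0.048 and 0.045 for clustered and 0.028 and 0.046 for single peaks. Both settings remove by construction what all peaks share. Leaving out 1 library gave 113 to 277 calls of 352 (32.1% to 78.7%), with 113 without uninduced replicate 1 and 152 without uninduced replicate 2, where all peaks gave 10378 to 19611 of 26457 (39.2% to 74.1%). Uninduced and IAA numbers did not pair, and the replicate block gave 251 calls (71.3%, and 71.4% of all peaks). Of 597 settings of 40 named peaks, without peaks named only as cluster members, 69 lost a call with the sign kept. Most often these were of Zfp36 (first peak) and Zfp989 with 7 each, and Zfp207, Zfp217, Zfp281 and Zfp445 with 5 each. In another 40 settings the change turned above 0, so that no call of a fall could stand. A call was gained in 11 settings, 6 of them at Zfp931.

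Under centring, the changes of these 40 peaks that turned above 0 were Zfp932 0.16, Zfp568 0.0096, Zfp809 0.22 and 0.064, Zfp445 0.13, Zfp335 0.32, Zfp217 0.27, Zfp462 0.26, Zfp143 0.076, Zfp516 0.017, Zfp703 0.21, Zfp207 0.15, Zfp326 0.25, Zfp638 0.32 and 0.36, Zfp36 0.080, Zfp772 0.48, Zfp984 0.45, Zfp367 0.44 and Zfp980 0.059. With quantile normalization they were Zfp932 0.16, Zfp809 0.20 and 0.096, Zfp445 0.14, Zfp335 0.28, Zfp217 0.30, Zfp462 0.27, Zfp516 0.030, Zfp703 0.23, Zfp207 0.15, Zfp326 0.28, Zfp638 0.33 and 0.38, Zfp36 0.10 and 0.019, Zfp772 0.51, Zfp984 0.40 and Zfp367 0.46. Leaving out 1 library gave -0.34 to 0.043 for Zfp984, which turned without uninduced replicate 2, and -0.19 to 0.047 for Zfp772, which turned without IAA replicate 2. Peaks of few reads limit the rest, since the lowest tested held 5 reads in 1 library.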
